A study of Homo sapiens with 36 samples.

Results

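The 45 nuclear receptor genes examined here are named members of the receptor superfamily, taken from a list by gene symbol, out of 20033 protein-coding genes in GENCODE release 44. Nuclear receptors are transcription factors that mostly bind DNA through a zinc finger domain and respond to small lipid-soluble ligands such as steroids, retinoids, thyroid hormone, vitamin D and fatty acids. Many of them act as heterodimers with the retinoid X receptors, and the orphan members have no established hormone. In lung epithelium the glucocorticoid receptor is best known as the target of inhaled steroids, and several receptors are known to interfere with AP-1, the dimeric transcription factor of the Jun and Fos families.

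The cells were A549, an established human lung adenocarcinoma line, and B2B (BEAS-2B), an immortalised line of normal human bronchial epithelium, both untreated as far as the labels show. Binding was measured by ChIP-seq, in which DNA bound to an antibody target is sequenced. RNA polymerase II (pol II), H3K4me3, Med1, H3K27ac and the Jun-family proteins JunB, Jun and JunD were analysed in both lines, and CTCF and the cohesin subunit Rad21 in B2B only, with 2 replicates per target and 2 input samples per line. Each group is a single cell line, and the replicates had been merged before peaks were called, so that each of the 16 peak lists is pooled, no value has a replicate error, and no test between the lines was possible.

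Promoter peaks were defined as those reaching to 1 kb or less from an annotated start site of a gene on hg38. The receptor genes had a median of 8 start sites (range 1 to 31), compared with 5 over all coding genes, which gives them more chances of a call. For this reason counts over all receptor genes are followed by the percentage of all coding genes that met the same condition on the same chromosomes. The lists held between 8563 and 61225 peaks. The A549 pol II list was used on 19 chromosomes, both Med1 lists on 14 and the A549 H3K27ac list on 12, since these lists ended early, and 43, 35 and 33 receptor genes could be compared for them. The epithelial markers CDH1, EPCAM, KRT8 and KRT18 had an H3K4me3 promoter peak in both lines (4 of 4), which does not tell the lines apart. Such a peak was called at 72.0% of all coding genes in A549 and 61.5% in B2B. The mesenchymal genes VIM and CDH2 also had a peak in both lines, while SFTPC, a surfactant gene of alveolar cells, and TP63, a basal cell regulator, had a peak in A549 only. NKX2-1, a lung lineage factor, had a peak in both lines, and KRT5, SFTPB and NAPSA in neither. Of 3 genes of the 9p21 stretch taken beforehand as deleted in A549, CDKN2A and CDKN2B had no H3K4me3 peak there. The third, MTAP, had a peak in both lines.

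**Figure D1:**
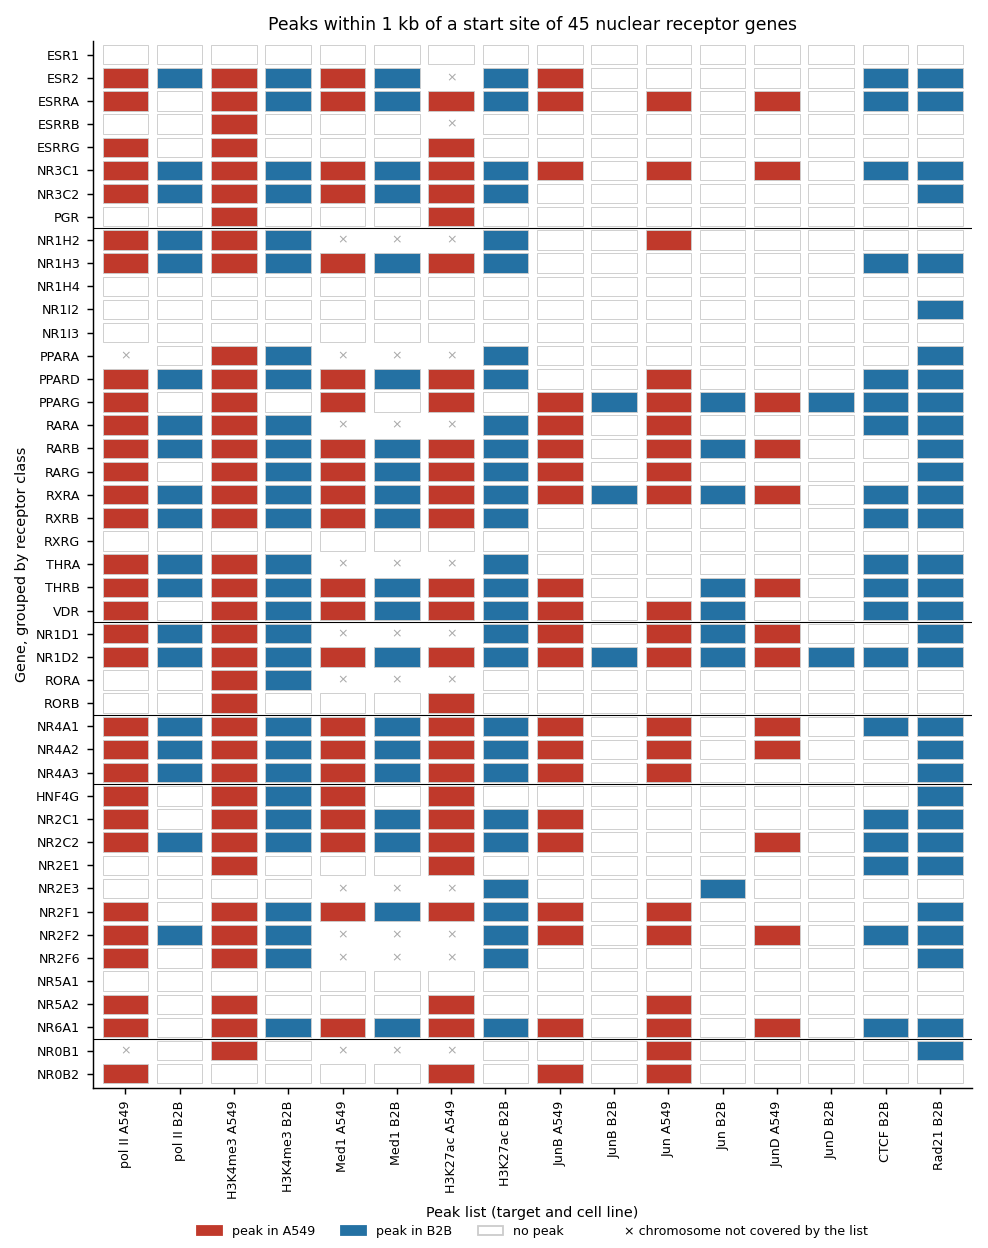
Peak calls within 1 kb of a start site for each of the 45 nuclear receptor genes (rows, grouped by receptor class) in each of the 16 peak lists (columns). Filled boxes are calls in A549 (red) or B2B (blue), open boxes are genes without a call, and a cross marks a chromosome the list does not cover. Receptor genes with H3K4me3 in both lines numbered 29, and red squares in the JunB, Jun and JunD columns mostly had no blue neighbour.

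To ask which receptor promoters were open to transcription in each line, H3K4me3, a histone mark of active and poised promoters, was examined first. H3K4me3 was called at 37 of 45 receptor genes in A549, where 72.0% of all coding genes had a peak, and at 29 of 45 in B2B, where the background was 61.5%. All 29 genes with a peak in B2B also had one in A549. The remaining 8 genes in A549, against 12.3% of all coding genes, were ESRRB, ESRRG, NR0B1, NR2E1, NR5A2, PGR, PPARG and RORB. No receptor gene (0 of 45) had H3K4me3 in B2B only, where the background was 1.82%. Another 8 genes had no H3K4me3 peak in either line, namely ESR1, NR0B2, NR1H4, NR1I2, NR1I3, NR2E3, NR5A1 and RXRG. This group holds the estrogen receptor alpha, the bile acid receptor FXR (NR1H4) and the xenobiotic sensors PXR (NR1I2) and CAR (NR1I3), which are best known from liver, gut and reproductive tissues. It also holds the photoreceptor gene NR2E3, and the progesterone receptor PGR and the liver receptor homologue NR5A2 had a peak in A549.

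Pol II, H3K27ac and Med1 were called at fewer receptor genes in B2B. Pol II was called at 31 of 43 receptor genes in A549 (67.6% of all coding genes) and at 19 of 43 in B2B (50.2%). Pol II in A549 only was found at 12 genes (19.0%), ESRRA, ESRRG, HNF4G, NR0B2, NR2C1, NR2F1, NR2F6, NR5A2, NR6A1, PPARG, RARG and VDR, and in B2B only at 0 (1.66%). H3K27ac, the mark of active enhancers and promoters, was called at 27 of 33 genes in A549 (71.6%) and at 19 of 33 in B2B (62.8%). The 8 genes with H3K27ac in A549 only (10.8%) were ESRRG, HNF4G, NR0B2, NR2E1, NR5A2, PGR, PPARG and RORB, and 0 were acetylated in B2B only (1.96%). For Med1, a subunit of the Mediator complex that contacts ligand-bound nuclear receptors, the lines were nearly level, with 22 of 35 genes in A549 (53.2%) and 20 of 35 in B2B (59.5%). HNF4G and PPARG were the 2 genes with Med1 in A549 only (3.68%), and 0 had it in B2B only (9.97%). HNF4G, a relative of the hepatocyte nuclear factor 4 alpha, was thus marked by H3K4me3 in both lines (fold enrichment 37.0 in A549 and 2.80 in B2B) but by pol II, Med1 and H3K27ac in A549 only.

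The peak caller worked against different local backgrounds in these lists, and this moved with the result. At receptor promoter peaks, the local background solved from the deposited values had a median of 40.2 reads for H3K4me3 in B2B and 3.43 in A549, 28.4 and 2.80 for pol II, and 25.1 and 2.16 for H3K27ac. It was close between B2B and A549 for Med1 (2.34 and 2.14), JunB (3.48 and 2.50), Jun (1.45 and 1.51) and JunD (3.07 and 2.67). In A549 these values rest on the peaks that could be solved, 36 of 57 for H3K27ac. In B2B the JunB, Jun and JunD values rest on only 3, 13 and 2 promoter peaks. Over peaks drawn from the whole lists, the B2B and A549 medians were 2.11 and 2.47 for JunB. They were 1.31 and 1.46 for Jun and 2.79 and 2.63 for JunD. The part of the local background in the lower number of B2B calls for pol II, H3K4me3 and H3K27ac was not tested. Fold enrichment, the ratio of pileup to local background at a summit, depends on this background, so a difference in fold enrichment between the lines is not read as a difference in binding. Percentiles place a peak among those of its own list.

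**Figure D2:**
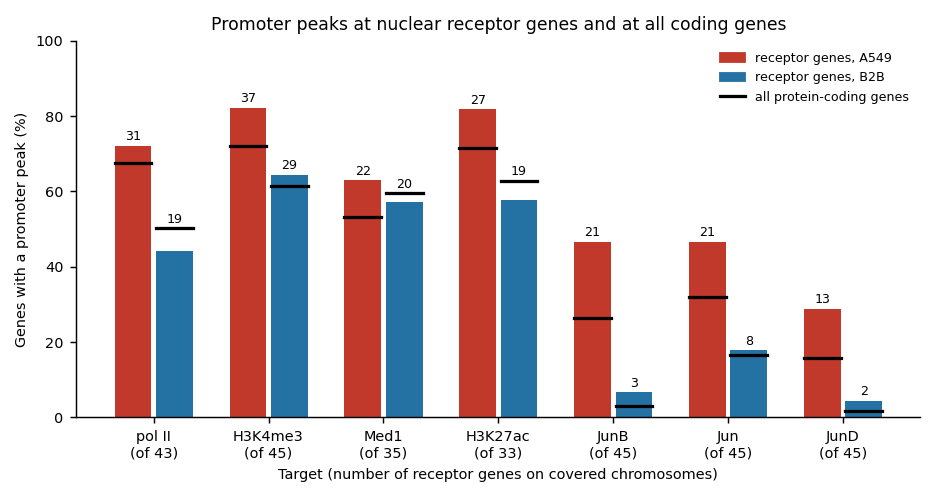
Share of receptor genes with a promoter peak (bars, %, with the number of genes above) in A549 (red) and B2B (blue) for 7 targets, and the share among all protein-coding genes on the same chromosomes (black lines). For JunB, Jun and JunD in A549 the bars reach 46.7%, 46.7% and 28.9%, above the lines at 26.3%, 31.9% and 15.8%.

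Among these 8 genes, PPARG had the most promoter peaks in A549. PPARG encodes the adipogenic fatty acid receptor that is also the target of glitazone drugs (chromosome 3, 12287368 to 12434356, plus strand, hg38), and it has 31 annotated start sites. In A549, it had 5 promoter peaks of pol II, 6 of H3K4me3, 4 of Med1 and 3 of H3K27ac, and in B2B it had 0 of each. The strongest H3K4me3 peak in A549 covered 12286965 to 12289919 at the 5′ end of the gene, with a fold enrichment of 30.0 (70.8th percentile of the list), and the strongest H3K27ac peak lay over the same start with 85.6 (92.7th percentile). No start site of PPARG was called for any of these 4 targets in B2B.

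In contrast to these marks, the Jun family was called at PPARG start sites in both lines. The strongest A549 Jun peak had its summit 185 bp upstream of an internal start site, with a fold enrichment of 65.7 (99.5th percentile, pileup 149 reads), and JunB (16.9) and JunD (12.2) had their strongest peaks at the same place. In B2B, Jun was called there with a fold enrichment of 11.8, but the strongest B2B peaks of Jun (35.4, 96.2th percentile), JunB (17.3) and JunD (8.66) lay at a start site 118 kb into the gene, 672 bp, 664 bp and 682 bp downstream of it. In A549, JunB (16.2) and Jun (7.97) were called there as well. The B2B CTCF list held a peak at that downstream place too, with a fold enrichment of 8.36. Over 50 kb to each side of its start sites PPARG had 8 Jun-family regions in A549 only, 3 in both lines and 0 in B2B only.

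**Figure D3:**
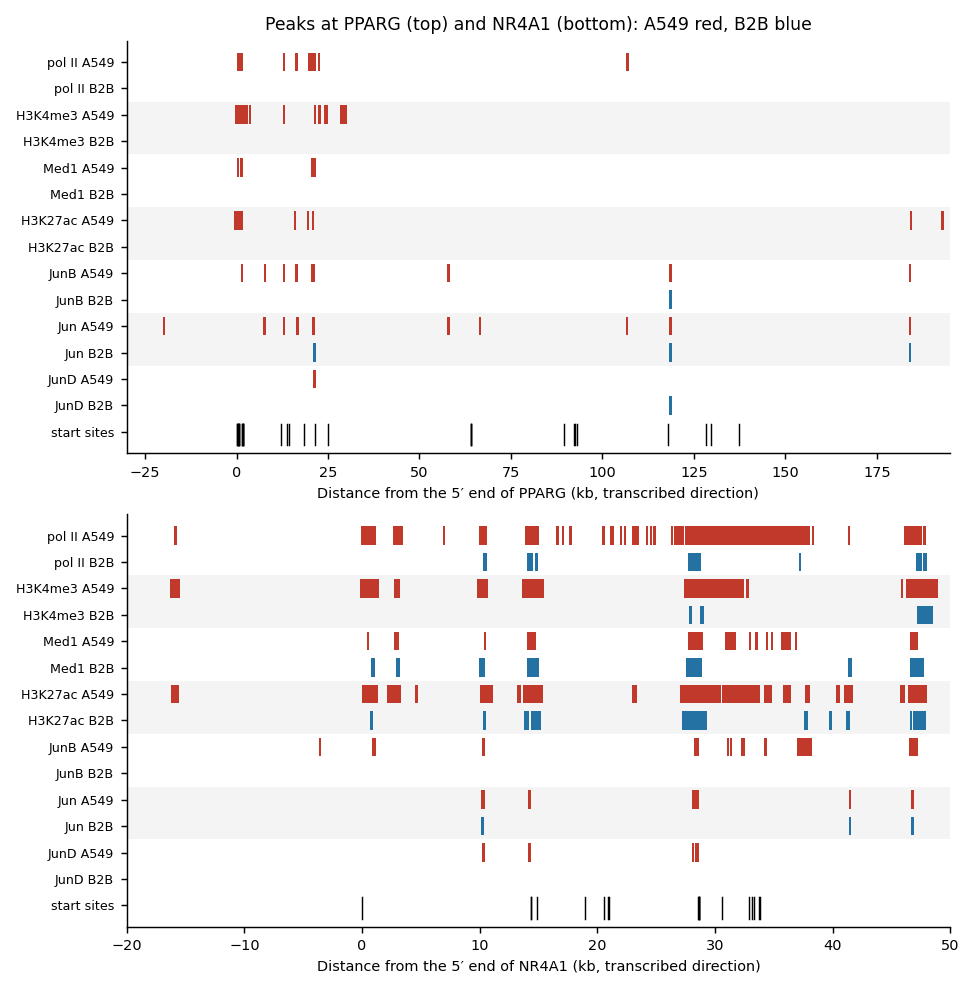
Called peaks of 7 targets at PPARG (top) and NR4A1 (bottom), drawn by distance from the 5′ end of each gene in kb, with A549 in red, B2B in blue and annotated start sites as black ticks. At PPARG the pol II, H3K4me3, Med1 and H3K27ac rows of B2B are empty while Jun-family rows hold both colours. At NR4A1 these 4 targets were called in both lines, and near the start sites 28.6 kb into the gene Jun-family peaks are red only.

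The other 7 genes with H3K4me3 in A549 only had fewer marks. ESRRG, an orphan receptor of oxidative metabolism (chromosome 1, 216503246 to 217137755), had H3K4me3 (fold enrichment 25.4, 64.3th percentile), H3K27ac (54.0, 80.9th percentile) and a weak pol II peak (4.48, 18.1th percentile), and none of the 3 Jun proteins. NR5A2, the liver receptor homologue of endoderm and pancreas (chromosome 1, 200027614 to 200177420), had the same marks with 33.2 for H3K4me3, 37.3 for H3K27ac and 4.34 for pol II, and a Jun peak of 8.09 (41.2th percentile) at −307 bp from a start, where negative values are upstream. NR0B1, which encodes DAX1, an atypical receptor without a DNA-binding domain that represses other receptors, had an H3K4me3 peak of 4609 bp (fold enrichment 41.2) and a weak Jun peak of 5.51 (11.8th percentile) in A549. The X chromosome is not covered by the other A549 mark lists. RORB, a retinoid-related orphan receptor of neural tissue, had 21.4 for H3K4me3 and 3.89 for H3K27ac, the lowest H3K27ac value among the 6 of these genes with such a peak. PGR, the progesterone receptor, had 10.2 and 4.75, and NR2E1, the neural stem cell factor TLX, had 9.33 and 8.21. ESRRB, a pluripotency factor, had 7.94 for H3K4me3, the lowest among these 8 genes, and was not covered by the A549 H3K27ac list. Pol II was not called at ESRRB, NR2E1, PGR or RORB in either line. A start of another coding gene, OSTM1, lies within 1 kb of NR2E1, and NR2E1 was the gene that dropped out of these 8 when such shared peaks were left aside. PGR dropped out when only the canonical start was used.

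The Jun family was then examined at the same promoters, since AP-1 is a classic partner and opponent of nuclear receptors. JunB was called at 21 of 45 receptor genes in A549 (26.3%) and at 3 in B2B (3.02%), which were NR1D2, PPARG and RXRA. JunB in A549 only was found at 18 genes (23.8%) and in B2B only at 0 (0.534%). Jun was called at 21 of 45 genes in A549 (31.9%) and at 8 in B2B (16.5%), with 15 in A549 only (19.7%) and 2 in B2B only (4.32%), NR2E3 and THRB. JunD was called at 13 of 45 genes in A549 (15.8%) and at 2 in B2B (1.75%), NR1D2 and PPARG, with 11 in A549 only (14.9%) and 0 in B2B only (0.854%). The A549 JunB list was more than 3 times as long as the B2B list, with 28068 and 8563 peaks, and this moved with the result. With the A549 list reduced to the length of the B2B list by significance, JunB was called at 5 receptor genes in A549 (6.79%) and 3 in B2B (3.02%), a difference of 2 in place of 18. For Jun the B2B list was the longer, and shortening it gave 21 genes in A549 (31.9%) and 7 in B2B (14.3%). For JunD, where the A549 list was shortened, 11 genes were called in A549 (13.8%) and 2 in B2B (1.75%). The median pileup behind a Jun-family peak was 21 to 25 reads, so that weak binding could not be detected at this depth.

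Genes with at least 2 of the 3 Jun-family proteins at their promoter in A549 and none in B2B numbered 12 of 45 (14.6% of all coding genes), and the reverse held for 0 (0.300%). They were ESRRA, NR0B2, NR2C2, NR2F1, NR2F2, NR3C1, NR4A1, NR4A2, NR4A3, NR6A1, RARA and RARG. All but NR0B2 had H3K4me3 in both lines. Among the 29 receptor genes with H3K4me3 in both lines, 11 met this condition (22.2% of 11959 such coding genes). Any Jun-family protein was called in A549 at 21 of these 29 (56.2%) and in B2B at 6 (22.9%). At 500 bp in place of 1 kb, NR1D1, NR1D2 and THRB joined the 12 genes, giving 15 (14.7% of all coding genes). With all lists reduced to equal length per protein, 5 of the 12 genes remained, ESRRA, NR2F2, NR3C1, NR4A1 and NR4A2, and the background was 7.89%.

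All 3 NR4A genes were in this group, although NR4A2 left it when the distance was widened to 3 kb, as did RARA, since a B2B Jun peak of 3.93 lay −2895 bp from an NR4A2 start. NR4A1 (Nur77), NR4A2 (Nurr1) and NR4A3 (NOR1) are immediate early genes, induced within minutes by growth factors and stress, and their products bind DNA without a known hormone. All 3 had pol II, H3K4me3, Med1 and H3K27ac promoter peaks in both lines. In A549, NR4A2 had the strongest marks, with a fold enrichment of 118 for pol II and 149 for H3K27ac, while NR4A1 had 92.2 and 116 and NR4A3 had 110 and 76.2. In B2B, H3K27ac had a fold enrichment of 9.86 at NR4A2 (88.8th percentile), 7.79 at NR4A1 (77.3th) and 5.62 at NR4A3 (52.0th). H3K4me3 at NR4A1 in B2B was near the bottom of its list, with 1.78 (3.11th percentile, −log10 q of 3.90), and was lost at a −log10 q of at least 5.

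Jun was called in A549 at all 3 NR4A genes, with its strongest summit 164 bp upstream of a start of NR4A1 (fold enrichment 25.7, pileup 85 reads), 164 bp upstream of NR4A2 (13.0, 25 reads) and 42 bp upstream of NR4A3 (16.1, 33 reads). JunB lay at the same places with 6.22, 8.20 and 6.30. JunD was called at NR4A1 (5.01) and NR4A2 (8.41) and not at NR4A3. None of the 3 proteins was called within 1 kb of a start of these genes in B2B. NR3C1, the glucocorticoid receptor (chromosome 5, 143277931 to 143435512, minus strand), had the same pattern with all 3 proteins, Jun at 14.8 (36 reads, 93 bp upstream of a start), JunB at 8.59 and JunD at 5.07, all in A549 only. Within 50 kb of its starts, NR3C1 had 2 Jun-family regions in A549 only, 5 in both lines and 4 in B2B only. Its Med1 peaks were among the strongest in both lists, with 30.6 in A549 (98.7th percentile) and 25.4 in B2B (98.7th percentile).

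The sequence at the NR4A2 and NR4A3 summits is shown because neither holds the AP-1 heptamer, TGACTCA or TGAGTCA, although Jun was called there. Each is the plus strand of hg38 over 50 bp to each side of the A549 Jun summit, with TGACG or CGTCA in capitals, the letters of the core of a cyclic AMP response element on either strand, a motif that was searched after the sequences had been seen.
NR4A2: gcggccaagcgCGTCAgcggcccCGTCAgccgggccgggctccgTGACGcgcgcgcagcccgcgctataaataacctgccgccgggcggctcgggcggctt
NR4A3: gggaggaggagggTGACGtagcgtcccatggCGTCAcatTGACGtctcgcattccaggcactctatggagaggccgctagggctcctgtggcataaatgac
The NR4A2 window (chr2:156342462-156342562) lies upstream of the gene, over no annotated gene. The NR4A3 window (chr9:99821763-99821863) has its summit upstream of the gene, inside the non-coding gene STX17-DT, and ends in the first bases of NR4A3. TGACG or CGTCA occurred 3 times at NR4A2 and 3 times at NR4A3. The window at the NR3C1 summit (chr5:143403732-143403832), inside NR3C1, also held no AP-1 heptamer and TGACG or CGTCA 1 time.

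Over all receptor genes, A549-only Jun-family regions within 1 kb of a start held TGACG or CGTCA in 17 of 54 windows (31.5%), compared with 24.5% of the 7046 such regions of all genes and 12.2% of windows of the same length that end at a RefSeq start site (GRCh38.p14). The 54 windows include those whose reading prompted the search, so this count is no independent support for it. The full palindromic cyclic AMP response element was in 1 of the 54 (1.85%), compared with 3.58% over all genes. The AP-1 heptamer was in 7 of the 54 (13.0%, compared with 12.4% over all genes). Further from starts, A549-only regions near receptor genes held the heptamer in 21 of 57 windows (36.8%, compared with 36.7%) and TGACG or CGTCA in 4 (7.02%, compared with 7.55%). Regions called in both lines held the heptamer most often, in 47 of 77 (61.0%, compared with 51.5%). It was in 28 of 111 A549-only regions (25.2%, compared with 29.7%) and in 24 of 75 B2B-only regions (compared with 28.7%). The core letters of a receptor binding site, AGGTCA or TGACCT, were in 10 of 111 A549-only regions (9.01%), 7 of 77 regions of both lines (9.09%) and 10 of 75 B2B-only regions (13.3%), compared with 7.80%, 10.6% and 10.3% over all regions. A match is a description of these letters and not of a bound site.

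Of the other 8 genes of this group, ESRRA, a receptor that drives mitochondrial genes, had all 3 proteins in A549, with Jun at 9.15 and its summit at −739 bp from a start. NR2F1 and NR2F2, the COUP transcription factors of organ development, had Jun at 10.8 and 5.06. NR6A1, the germ cell nuclear factor, had Jun at 9.63 at −5 bp from a start, and NR2C2, the testicular receptor 4, had JunB (4.16) and JunD (4.75) only, at the 5.53th and 30.2th percentile of their lists. The retinoic acid receptor genes RARA and RARG had Jun (11.2 and 11.9) and JunB (4.88 and 7.83). NR0B2, the bile acid induced repressor SHP, was the exception without H3K4me3 in either line. It had Jun (5.98), JunB (6.52), pol II (6.51) and H3K27ac (11.5) in A549 and none of these in B2B.

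Several receptor genes had the Jun family in both lines. NR1D2, the circadian repressor REV-ERB beta, had all 3 proteins in both lines, and its Jun summit was at −1031 bp from a start in A549 (fold enrichment 26.2) and at −1064 bp in B2B (34.2, 95.8th percentile), with the peak edges within 1 kb. JunB and JunD were called at the same place in both lines, with A549 JunD at 4.56 there and stronger (7.19) at another start. Within 500 bp, or with the canonical start only, no Jun-family protein was called at NR1D2 in B2B. NR1D1 (REV-ERB alpha), its paralogue, had all 3 in A549 and Jun alone in B2B, with Jun summits at −726 bp and −745 bp from a start and fold enrichments of 25.2 and 12.9. RXRA, the retinoid X receptor alpha, had all 3 in A549 (Jun 34.8) and JunB and Jun in B2B, although the B2B JunB peak of 2.69 was at the 2.03th percentile. RARB, a retinoic acid receptor often silenced in lung cancer, had all 3 in A549, with Jun at 31.2, at the promoter with pol II, where Jun in B2B had 4.05. The strongest B2B Jun peak at RARB (17.1) lay at another start of this long gene. VDR, the vitamin D receptor, had JunB (8.02) and Jun (5.20) in A549 and Jun (13.9) in B2B. NR2E3, a photoreceptor gene, had a strong Jun peak in B2B only (34.2, 95.7th percentile, 32 bp downstream of a start) with no H3K4me3 in either line. In B2B it also had an H3K27ac promoter peak of 11.5 (93.3th percentile). The A549 H3K27ac list does not cover its chromosome. THRB, the thyroid hormone receptor beta, had JunB (4.37) and JunD (5.07) in A549 and Jun (5.08) in B2B, with the Jun summit 944 bp downstream of a different start site.

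By receptor class, the steroid receptors and their relatives had JunB in A549 at 3 of 8 genes (ESR2, ESRRA, NR3C1) and no Jun-family peak in B2B. The retinoid X receptors and the ligand-binding partners had JunB at 7 of 17 in A549 and 2 in B2B, and Jun at 8 and 5. The clock repressors and RORs had Jun at 2 of 4 in each line. The other orphans had JunB at 5 of 11 in A549 and 0 in B2B, and Jun at 4 and 1. Of the 2 genes without a DNA-binding domain, NR0B1 and NR0B2, both had Jun in A549 and neither had it in B2B. Over all coding genes JunB was called at 26.3% in A549 and 3.02% in B2B, and Jun at 31.9% and 16.5%, and with so few genes per class several of these counts lie near those shares.

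To ask whether Jun-family binding further from starts differed as well, all Jun-family peaks of both lines were merged into 72011 regions, of which 263 lay within 50 kb of a receptor start. An A549 region was near 40 of 45 receptor genes (83.0%) and a B2B region near 40 of 45 (75.3%). NR3C2, the mineralocorticoid receptor, and RORB had no region of either line. Of the 263 regions, 111 were called in A549 only (42.2%, compared with 34.1% of all regions), 77 in both (29.3%, compared with 26.5%) and 75 in B2B only (28.5%, compared with 39.4%). The 2 sets differ in position, since 54 of the 111 A549-only regions near receptor genes lay within 1 kb of a start, compared with 7046 of 24525 over all A549-only regions, and the part of this in the shares was not tested. Regions near neighbouring genes are shared, and 9 were counted for a pair of receptor genes, 7 for NR1D1 and THRA and 2 for NR5A1 and NR6A1. In B2B, 124 of 152 regions (81.6%, compared with 74.9% of all B2B regions) were called for Jun alone. In A549, 35 of 188 (18.6%, compared with 15.3%) were called for all 3 proteins.

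**Figure D4:**
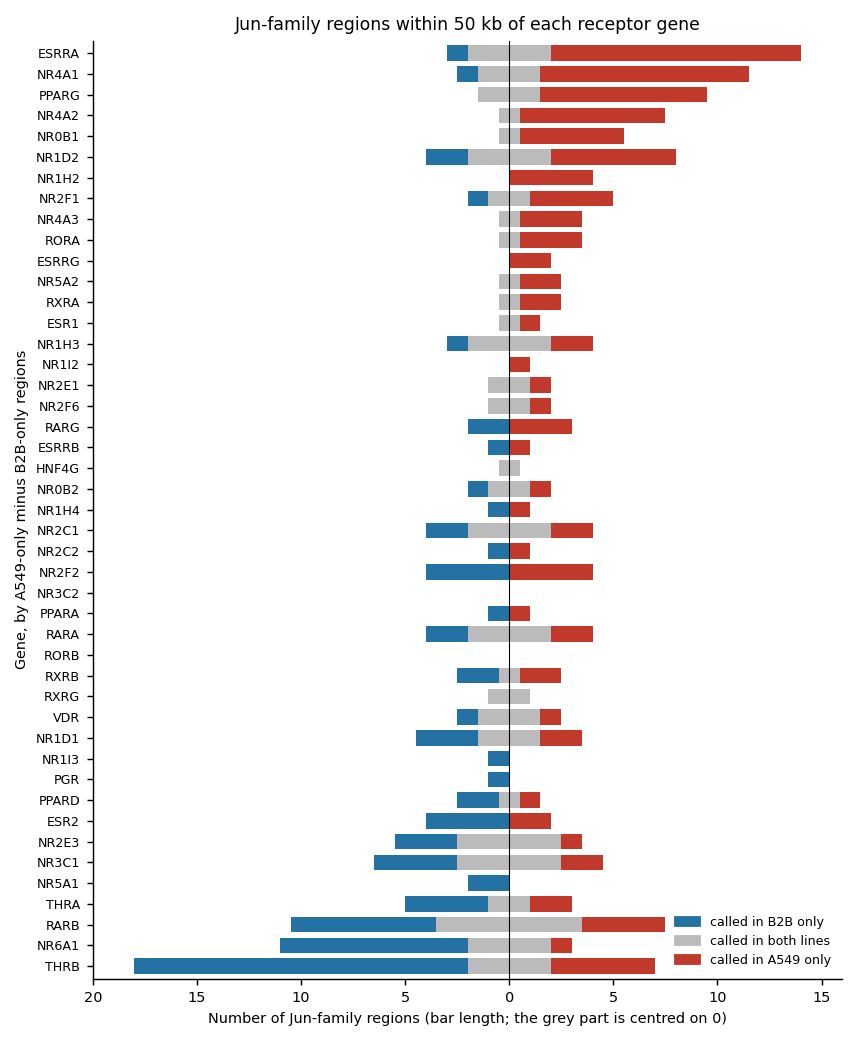
Number of Jun-family regions within 50 kb of the start sites of each receptor gene (rows, ordered by A549-only minus B2B-only), called in A549 only (red), in both lines (grey, centred on 0) or in B2B only (blue). ESRRA has the longest red bar with 12 regions and THRB the longest blue bar with 16.

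The excess of A549-only regions was largest at ESRRA, NR4A1 and PPARG. ESRRA had 12 regions in A549 only, 4 in both and 1 in B2B only, and its strongest regions were shared by the lines, with a summed fold enrichment over the 3 proteins of 100 in A549 and 40.7 in B2B at 20678 bp downstream of a start. NR4A1 had 10, 3 and 1, and PPARG 8, 3 and 0. Regions are counted by distance alone, and the start of another gene can be nearer. A receptor gene was the nearest coding start for 81 of the 111 A549-only regions and 53 of the 75 B2B-only regions. On chromosomes 1 to 12, which all 4 lists cover, A549-only regions near receptor genes overlapped H3K27ac in A549 in 52 of 85 (61.2%) and in B2B in 38 of 85 (44.7%), and Med1 in 46 (54.1%) and 39 (45.9%). Over all A549-only regions H3K27ac stood at 34.6% in A549 and 24.2% in B2B, while Med1 stood at 38.4% and 26.8%. As given above, regions near receptor genes lay within 1 kb of a start more often. The part of this in the overlap with marks was not tested.

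The excess was reversed at THRB, NR6A1 and RARB. THRB (chromosome 3, 24117153 to 24495756, minus strand), with 18 start sites over 378604 bp, had 5 regions in A549 only, 4 in both and 16 in B2B only, NR6A1 had 1, 4 and 9, and RARB had 4, 7 and 7. Few of the B2B-only regions carried a mark. Of 56 such regions near receptor genes on chromosomes 1 to 12, H3K27ac was called at 5 in B2B (8.93%) and 2 in A549 (3.57%), and Med1 at 3 (5.36%) and 0. Over all B2B-only regions, H3K27ac was called in B2B at 7.40% and Med1 at 8.62%.

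**Figure D5:**
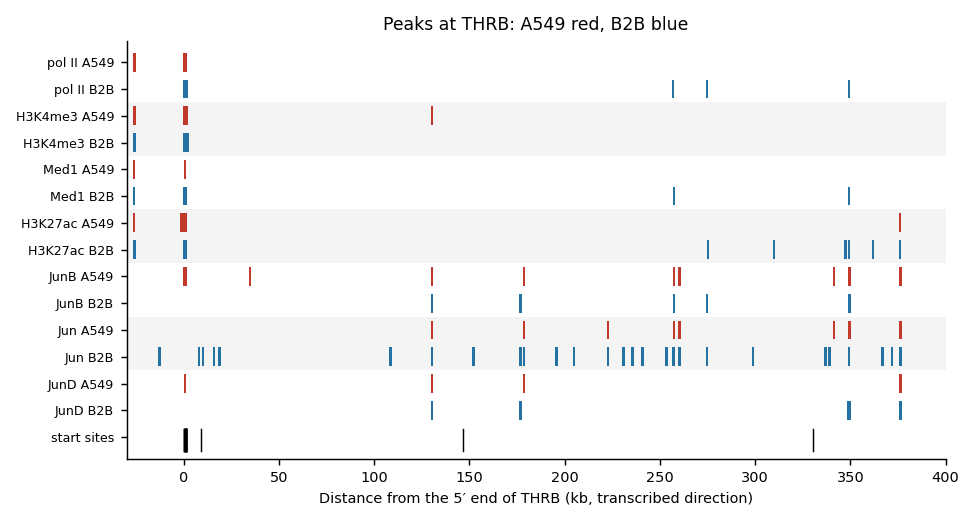
Called peaks of 7 targets at THRB by distance from its 5′ end in kb, with A549 in red, B2B in blue and start sites as black ticks. The Jun row of B2B holds peaks along the whole gene, many without a peak of another target, while pol II and H3K4me3 were called at the 5′ end in both lines.

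Regions called for all 3 proteins in A549 and none in B2B lay near 10 receptor genes (19.0%, 14 regions), and the reverse near 3 (3.41%, 3 regions), ESR2, NR2C1 and THRB. Among the strongest of each kind by summed fold enrichment, 4 are given with their sequence. They were among the 3 strongest regions near receptor genes called for all 3 proteins in their line alone. The AP-1 heptamer was at both A549 summits and at neither B2B summit printed here, which does not hold for the A549-only and B2B-only regions as a whole, whose shares are given above. The windows cover 50 bp to each side of the strongest Jun summit on the plus strand of hg38, with the heptamer in capitals.
NR1I2: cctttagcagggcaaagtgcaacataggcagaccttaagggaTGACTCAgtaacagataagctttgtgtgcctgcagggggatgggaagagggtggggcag
NR1H2: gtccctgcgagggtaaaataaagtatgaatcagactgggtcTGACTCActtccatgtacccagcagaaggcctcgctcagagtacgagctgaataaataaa
THRB: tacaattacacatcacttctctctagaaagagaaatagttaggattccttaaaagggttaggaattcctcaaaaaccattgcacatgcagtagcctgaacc
NR2C1: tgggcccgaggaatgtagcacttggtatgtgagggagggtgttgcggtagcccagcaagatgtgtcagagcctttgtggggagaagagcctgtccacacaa
The NR1I2 region (chr3:119795072-119795432, window chr3:119795222-119795322) lay in an intron of NR1I2, 12562 bp from its nearest start, with a summed fold enrichment of 47.5 in A549, although NR1I2 had no H3K4me3 in either line and the region had neither H3K27ac nor Med1. The region near NR1H2, the liver X receptor beta (chr19:50300842-50301231, window chr19:50301002-50301102), had 44.4 and lay in an intron of the neighbouring myosin gene MYH14, whose start is nearer. Another A549 region, near NR0B1 (chrX:30282547-30282878), also had 47.5. Its summit lay over no annotated gene, with a heptamer 26 bp away. Close to it lay a stronger region called for all 3 proteins in both lines (chrX:30283227-30283853). That region had a summed fold enrichment of 128 in A549 and 46.3 in B2B. In B2B, the THRB region (chr3:24318573-24319380, window chr3:24318859-24318959) had a summed fold enrichment of 55.0, of which Jun gave 43.0, and lay in an intron of THRB. The NR2C1 region (chr12:94983721-94984576, window chr12:94983879-94983979) had 38.6 and lay in an intron of NDUFA12, whose start is nearer. The third B2B region, near ESR2 (chr14:64232393-64232730), had 32.3, lay over an annotated exon of ESR2 and held a heptamer 15 bp from its summit. CTCF was called in B2B at all 3 of these B2B regions. The B2B CTCF list was the longest, with 61225 peaks. The share of all B2B-only regions with a CTCF peak was not counted, so this is not read as a trait of such regions.

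In B2B, the insulator proteins were also examined at the promoters. CTCF was called at 19 of 45 receptor genes (38.0%) and Rad21 at 31 of 45 (64.4%). Rad21 without CTCF was called at 12 genes (31.1%), among them HNF4G, NR0B1 and NR1I2. Rad21 had the highest fold enrichment at NR6A1 (30.2), where CTCF had 13.7. PPARG, which had no pol II, H3K4me3, Med1 or H3K27ac in B2B, had 2 Rad21 peaks there, the stronger of 8.27 at its 5′ end.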

How the data were processed

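The 36 samples, 4 of them inputs, fell into 18 groups of 2 replicates by target and line. The authors aligned reads to hg38 with Bowtie2 2.4.4 and SAMtools 1.13, removed duplicates, merged replicates, scaled by CPM and called peaks with MACS2 2.2.7.1, kept at q 0.01, and the caller options are not given in the sources used here. The deposited peak lists hold fold enrichment, a ratio of pileup to local background at each summit. They also hold −log10 p-values and −log10 q-values computed by the authors' caller. Pileup and background reads were solved from the deposited fold enrichment and p for 300 peaks per list and for the receptor promoter peaks.

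Start sites came from GENCODE 44. A peak counted with 1 bp or more within 1 kb of a start, and Jun-family peaks of both lines that overlapped by 1 bp were merged into regions. A list was used only on chromosomes it covers whole. Python 3.11.15 with NumPy 2.4.6, SciPy 1.17.1 and Matplotlib 3.10.9 was used. Counting was tested on simulated peaks with planted answers. The members and lists were chosen with earlier results of these data known. Described in full were genes with H3K4me3 in 1 line only, genes with at least 2 Jun proteins in 1 line and none in the other, the 3 genes with the largest excess of regions each way, and the 3 strongest regions per line called for all 3 proteins in that line alone. Sequences were shown for some of these regions and of the strongest promoter peaks, without those in untranslated exons, and others are not reported here. In addition, NR1D2, RXRA, RARB, NR1D1, VDR, NR2E3 and HNF4G were named after their values were seen. Pooled lists allow no test.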

Additional observations from a re-analysis of the deposited data

How the results depend on the processing

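No paired analysis was possible because replicates had been merged before peaks were called. Of 71 alternative counts, 61 stayed within 1.5 times the main count, 10 moved further and 0 changed direction. Some of the 61 could not move. Judging coverage by position leaves the H3K4me3, JunB, Jun and JunD lists unchanged, since they cover every chromosome. Counts of regions cannot change direction. With the canonical start only, the excess of A549 over B2B genes with Med1 was 1 in place of 2 and with H3K27ac 4 in place of 8. With lists of equal length, the JunB excess was 2 in place of 18, and genes with at least 2 Jun proteins in A549 and none in B2B numbered 5 in place of 12. Alternatives for these genes were chosen after seeing the data. Within 100 kb, regions in A549 only numbered 167, in both 127 and in B2B only 139. Within 25 kb, those in both numbered 48 and in B2B only 35, and 51 in both had a receptor gene as the nearest coding start. A wider distance can only add regions, and a narrower distance or the nearest-start condition can only remove them. For the counts of genes, except with list length, which shortens the longer list, the cause was not tested. The median pileup at a peak was 18 to 104 reads by list, which limits the detection of weak peaks.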

Other observations

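Coregulators of nuclear receptors carry the receptors' signal to chromatin and to the transcription machinery. H3K4me3 was called at 21 of 21 coregulator genes in both lines (72.0% of all coding genes in A549 and 61.5% in B2B). Pol II was called at 15 of 16 covered genes in A549 and 11 in B2B (67.6% and 50.2% of all coding genes). CARM1, NCOA2, PPARGC1B and TBL1XR1 had it in A549 only (19.0% of all coding genes). JunB was called at 11 of the 21 in A549 and 0 in B2B (26.3% and 3.02% of all coding genes), Jun at 14 and 9 (31.9% and 16.5%), and JunD at 6 and 0 (15.8% and 1.75%). At least 2 Jun proteins in A549 and none in B2B were found at 5 genes, CREBBP, EP300, LCOR, NCOA3 and NCOR1, and the reverse at 0. The same held for 22.2% of all coding genes with H3K4me3 in both lines, which is close to 5 of 21. CREBBP, which encodes the histone acetyltransferase CBP, had JunB at a fold enrichment of 13.5, Jun at 38.3 and JunD at 10.9. Jun in B2B only was called at PPARGC1A, the coactivator PGC-1 alpha, where the share of all coding genes was 4.32%.

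Among 29 known receptor target genes, H3K4me3 was called at 24 in A549 and 14 in B2B (72.0% and 61.5% of all coding genes), with 10 in A549 only (12.3%), such as ABCB1, ABCG1, ANGPTL4 and CYP24A1, and 0 in B2B only (1.82%). At least 2 Jun proteins in A549 and none in B2B were found at 4, CYP24A1, CYP26B1, NFIL3 and SMPDL3A, and 4 of 29 is near the 14.6% of all coding genes. CYP24A1, the vitamin D catabolic enzyme, had JunB at 7.54, Jun at 10.1 and JunD at 5.96. Jun in B2B only was called at ABCA1, BMAL1 and PLIN2 (4.32% of all coding genes). The JunB list of A549 is longer than that of B2B, and its part in these counts was not tested.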
